A study of Mus musculus with 2 samples.

Results

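The genes described here are 35 cell cycle and DNA replication genes, taken by symbol from the 32285 genes of the count matrices, and all 35 were found. They fall into 16 genes of S phase, 17 genes of mitosis and the preceding G2 phase, and 2 genes, Hmgb2 and Stmn1, that are high in dividing cells but are also expressed outside the cycle. They were counted in hippocampal cells of 2 groups of mice at 7 weeks of age. The 60TM group carried the GFAP-hGFAP transgene of the 60TM line, a model of Alexander disease, in which the human gene of the astrocyte filament protein GFAP is added to the mouse genome. The 60TM mice were on the C57BL6/J background, and the WT group was C57BL6/J. Each group is a pool of 3 mice in 1 library, dissociated with papain and read with the 10x Genomics 3′ kit, so no spread between animals can be had and no test between genotypes was made. All intervals below are 95% intervals that cover counting error only. Those of summed counts are too narrow where a few cells hold most of the counts.

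A cell that enters the cycle first loads the MCM helicase (Mcm2 to Mcm7) onto its replication origins with the loaders Cdc6 and Cdt1. In S phase it copies its DNA, with Pcna as the clamp that holds the polymerases, Gins2 as a part of the active helicase, Fen1 as the nuclease that trims Okazaki fragments, Rrm1, Rrm2, Tyms and Dut as suppliers of nucleotides, and Ung as the enzyme that removes uracil from DNA. Mitosis follows, driven by Cdk1 with the cyclins Ccna2, Ccnb1 and Ccnb2 and by the kinases Plk1, Aurka, Aurkb and Bub1. Top2a untangles the chromosomes, Mki67 coats them, Cenpa, Cenpe and Cenpf belong to the centromere and kinetochore, Tpx2 and Nusap1 organise the spindle, Birc5 is a subunit of the Aurkb complex, and Ube2c tags cyclins for destruction. In the adult hippocampus the cells known to divide are progenitors of the dentate gyrus and oligodendrocyte precursors (OPCs), while resting microglia divide rarely and mature neurons and oligodendrocytes do not.

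The promoters of S phase and mitosis genes carry different short motifs, and 6 of them are shown because the results below turn on these genes in microglia. They are the 3 S phase genes and the 3 mitosis genes that stood highest in 60TM over WT microglia, ranked by the lower bound of the ratio's interval, among those with 1 listed start. Each sequence is the 250 bases before the start of the gene in RefSeq (build GRCm38.p6), read 5′ to 3′ along the gene, with capitals for matches of 3 motifs on either strand. The E2F motif was searched as TTTCCCGC, TTTCGCGC, TTTGCCGC and TTTGGCGC, the CHR motif as TTTGAA or TTTAAA, and the CCAAT motif as CCAAT. The regions are chr6:88898781-88899030, minus strand for Mcm2, chr1:128359706-128359955, minus strand for Mcm6, chr8:75109259-75109508, plus strand for Mcm5, chr7:135716380-135716629, minus strand for Mki67, chr2:164769679-164769928, plus strand for Ube2c and chr11:99024190-99024439, minus strand for Top2a.
Mcm2: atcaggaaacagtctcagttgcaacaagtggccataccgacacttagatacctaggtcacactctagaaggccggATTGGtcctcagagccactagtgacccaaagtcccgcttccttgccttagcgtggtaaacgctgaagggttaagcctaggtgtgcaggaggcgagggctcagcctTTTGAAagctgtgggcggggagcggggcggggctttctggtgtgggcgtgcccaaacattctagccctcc
Mcm6: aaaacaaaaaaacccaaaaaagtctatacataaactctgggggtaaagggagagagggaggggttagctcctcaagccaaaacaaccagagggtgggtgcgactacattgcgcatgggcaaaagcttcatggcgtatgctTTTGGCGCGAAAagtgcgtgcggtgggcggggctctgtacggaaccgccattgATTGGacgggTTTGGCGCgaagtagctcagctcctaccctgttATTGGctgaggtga
Mcm5: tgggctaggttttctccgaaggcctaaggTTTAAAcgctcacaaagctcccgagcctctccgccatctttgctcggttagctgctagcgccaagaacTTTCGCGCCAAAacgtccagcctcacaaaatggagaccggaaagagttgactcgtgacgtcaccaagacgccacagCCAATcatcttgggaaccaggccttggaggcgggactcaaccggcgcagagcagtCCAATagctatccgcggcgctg
Mki67: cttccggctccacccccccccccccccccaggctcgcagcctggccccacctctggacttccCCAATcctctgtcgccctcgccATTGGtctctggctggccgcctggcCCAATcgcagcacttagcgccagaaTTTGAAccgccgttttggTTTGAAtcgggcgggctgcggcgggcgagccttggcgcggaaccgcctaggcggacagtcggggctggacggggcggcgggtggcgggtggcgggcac
Ube2c: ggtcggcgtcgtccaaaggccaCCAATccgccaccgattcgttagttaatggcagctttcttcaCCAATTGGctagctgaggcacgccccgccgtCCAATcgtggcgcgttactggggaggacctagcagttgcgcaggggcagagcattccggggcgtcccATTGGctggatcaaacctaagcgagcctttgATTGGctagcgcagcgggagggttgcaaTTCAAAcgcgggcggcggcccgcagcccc
Top2a: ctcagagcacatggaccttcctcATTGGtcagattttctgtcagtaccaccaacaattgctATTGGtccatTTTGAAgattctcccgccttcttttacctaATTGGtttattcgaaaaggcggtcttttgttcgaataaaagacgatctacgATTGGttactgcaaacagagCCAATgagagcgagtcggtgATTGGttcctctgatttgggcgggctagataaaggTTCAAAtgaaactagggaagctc
The Mcm2 window held 0 E2F matches and 1 CHR match, at 70 bases before the start. The Mcm6 window held 3 E2F matches, 2 of them overlapping on opposite strands, and the Mcm5 window held 2 that overlap in the same way. Mcm5 also had 1 CHR match, at 221 bases. The Mki67 window had 2 CHR matches, at 116 and 98 bases before the start, and 3 CCAAT matches. Ube2c had 1 CHR match at 29 bases and 6 CCAAT matches, 2 of which overlap on opposite strands, and Top2a had 2 CHR and 6 CCAAT matches. None of the 3 mitosis windows shown held the letters of the E2F motif.

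Promoters were found for 29 of the 35 genes, 14 of the 16 S phase genes and 14 of the 17 mitosis genes. The motifs were then searched in the whole 300-base window, which adds 50 bases after the start. A gene counted when any of its listed starts matched. The E2F motif was found for 6 of 14 S phase genes (42.9%) and 1 of 14 mitosis genes (7.14%, Cdk1), against 2.61% of the 27025 genes with a listed promoter. The CHR motif was found for 4 of 14 S phase genes (28.6%) and 12 of 14 mitosis genes (85.7%), against 30.6% of all these genes. CCAAT was found for 8 of 14 S phase genes (57.1%) and 12 of 14 mitosis genes (85.7%), against 41.1% of all. A match describes the letters in this window and not a bound site.

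After filtering, 7575 cells of the 60TM library (70839273 UMIs, median 7502 per cell) and 6086 cells of the WT library (57439787 UMIs, median 7216 per cell) were kept, where a UMI is 1 counted transcript. The libraries shared 20 cell barcodes, 14 of them among the kept cells. Classes were built from clusters computed without the listed cell cycle genes and were named by markers. They are still not independent of the cycle. Before mixed clusters were split, a cluster of 129 60TM and 87 WT cells had Hist1h1b, Pclaf, Top2a and Mki67 among its leading genes. Its best markers were those of interneuron-lineage cells marked by Dlx genes, followed by those of intermediate progenitors. The split was chosen after seeing the data. In the microglia the 8 microglial markers summed to 22254 counts per 1000000 UMIs (CPM) in the 60TM library and 26595 CPM in the WT library, against 24.8 and 13.1 CPM for markers of border macrophages and 24.9 and 8.2 CPM for those of monocytes, with Chil3 at 0. OPC markers summed to 7675 CPM in 60TM OPCs and 7331 CPM in WT OPCs, and 5 of 5 monocyte markers were at 0 there. RNA of choroid plexus markers was found outside its class and was higher in the 60TM library, at 349 against 33.8 CPM in microglia and 378 against 22.9 CPM in OPCs, and its part in the results was not tested.

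A cell was counted as mitotic when it held UMIs of at least 3 of the 17 mitosis genes and as an S phase cell when it held at least 3 of the 16 S phase genes. Over all cells the mitotic share was alike in the libraries, at 108 of 7575 cells in 60TM (1.43%) and 86 of 6086 cells in WT (1.41%), a ratio of 1.01 with an interval of 0.753 to 1.36. Their makeup by class in the main grouping differed between the libraries for microglia, and it moved under other groupings, as given below. Cells of the neurogenic lineage, from stem cell to immature neuron, made up 66 of the 108 mitotic 60TM cells (61.1%) and 54 of the 86 mitotic WT cells (62.8%). Microglia made up 13 of them in 60TM (12%, interval 6.57 to 19.7%) and 1 in WT (1.16%, interval 0.0294 to 6.31%). OPCs made up 11 in 60TM (10.2%) and 15 in WT (17.4%).

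**Figure D1:**
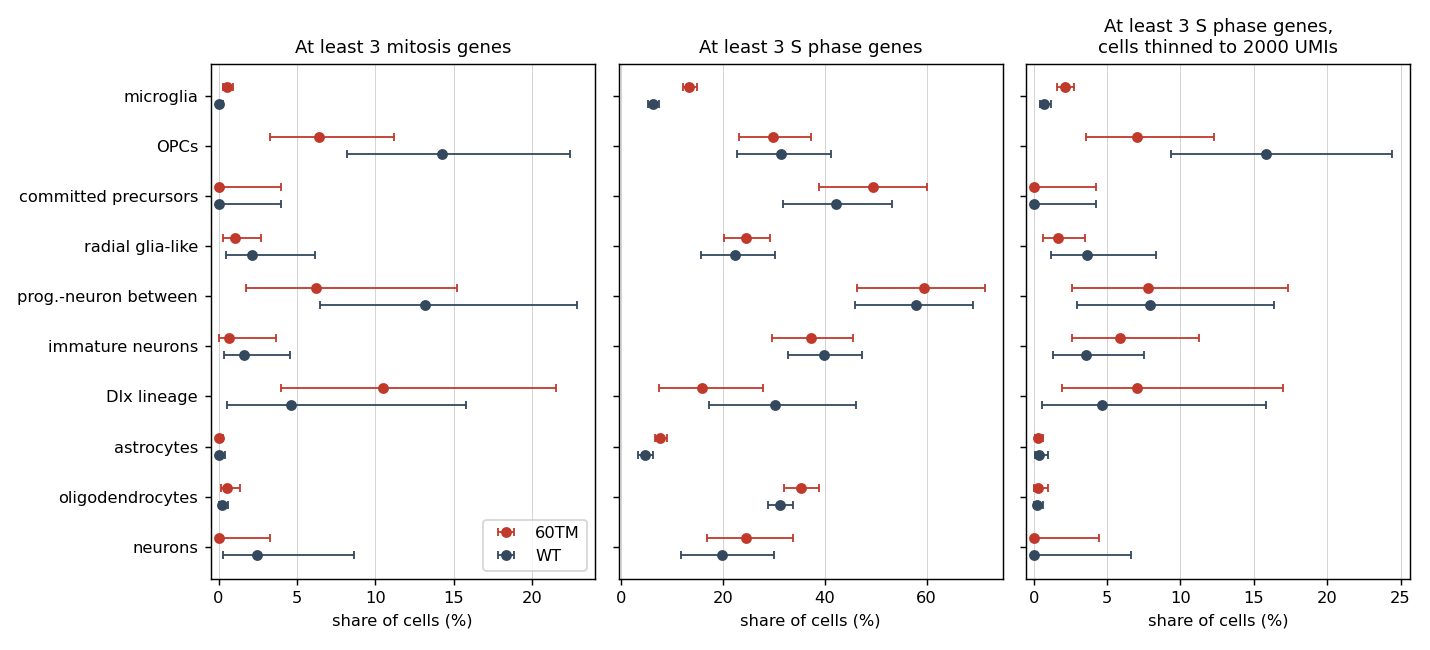
Share of cells (x axis, percent, with exact 95% binomial intervals) that hold at least 3 mitosis genes, at least 3 S phase genes, or at least 3 S phase genes after each cell is thinned to 2000 UMIs, in 10 cell classes (y axis), 60TM above WT in each class. The mitotic share of microglia was 0.525% in 60TM and 0.0474% in WT, that of OPCs was 6.43% in 60TM and 14.3% in WT, and thinning brings the S phase share of oligodendrocytes to 0.266% in 60TM and 0.215% in WT.

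In microglia, genes of both phases were higher in the 60TM library. Mitotic cells were 13 of 2476 microglia in 60TM (0.525%, interval 0.28 to 0.896%) and 1 of 2109 in WT (0.0474%, interval 0.0012 to 0.264%), a ratio of 11.1 that the single WT cell leaves between 1.66 and 471. After every cell was thinned to 2000 UMIs, 9 of 2452 60TM microglia and 1 of 2079 WT microglia remained mitotic (0.367% and 0.0481%), beside 1 of 753 oligodendrocytes in 60TM (0.133%) and 1 of 1393 in WT (0.0718%). Unthinned oligodendrocytes, which do not divide, had shares of 4 in 754 (0.531%) in 60TM and 3 in 1393 (0.215%) in WT at a median of 15729 and 14637 UMIs, and neurons had 0 of 110, which allows up to 2.73%, in 60TM and 2 of 81 in WT. The number of genes per cell differed between the classes: 6 of the 13 mitotic 60TM microglia held at least 10 mitosis genes, 4 of them all 17, while no mitotic oligodendrocyte of either library held more than 8.

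The 13 mitotic 60TM microglia had 2430 to 31888 UMIs, each had UMIs of 7 or 8 of the 8 microglial markers, and they held 3 to 17 mitosis genes and 0 to 15 S phase genes. Mki67 reached 85 UMIs and Top2a 77 UMIs in the cell with the most. The WT cell had 2495 UMIs, 11 mitosis genes, 3 S phase genes and all 8 microglial markers. Doublet scores of the 60TM cells were 0.0144 to 0.0725 and that of the WT cell 0.0658. The number of such cells moved with the way cells were grouped, from 6 to 13 in 60TM and from 0 to 1 in WT, and each grouping tried gave more in 60TM than in WT.

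The summed level of the 17 mitosis genes in microglia was 81.6 CPM in 60TM (1528 UMIs) and 15.7 CPM in WT (210 UMIs), a ratio of 5.21 (4.51 to 6.05). Mitotic cells held 78.9% of those UMIs in 60TM and 13.3% in WT, so the level is mostly that of the 13 cells. Without the cells that had at least 3 genes of either phase the ratio was 1.32. Those cells were picked by the summed genes, so this value does not show whether the other cells differ. Some other groupings of the cells gave ratios between 1.53 and 4.16, and all 13 alternatives gave 1.32 to 5.36.

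Mki67, the coat of mitotic chromosomes, had 233 UMIs in 60TM microglia (12.4 CPM) and 3 UMIs in WT microglia (0.224 CPM), a ratio of 55.6 (18.8 to 272). Ube2c, which marks cyclins for destruction, had 106 UMIs in 60TM and 4 in WT, a ratio of 19.0 (7.20 to 71.0). Top2a had 247 UMIs in 60TM (13.2 CPM) and 19 in WT (1.42 CPM), a ratio of 9.31 (5.84 to 15.7). These 3 genes are nearly silent in WT microglia, and in 60TM 96.6% of the Mki67 UMIs lay in the 13 mitotic cells. Among the kinetochore genes, Cenpf had 191 UMIs in 60TM and 23 in WT (ratio 5.95, 3.85 to 9.61), Cenpe 88 and 11 (5.73, 3.05 to 11.9), and Cenpa, the centromeric histone, 130 and 47 (1.98, 1.41 to 2.83). Cdk1 had 143 UMIs in 60TM and 44 in WT (2.33, 1.65 to 3.34), with 37.1% of the 60TM UMIs in mitotic cells, so this kinase was also read in cells that failed the criterion. All 17 mitosis genes had a higher level in 60TM, with ratios from 1.98 for Cenpa to 55.6 for Mki67, and the interval of Plk1 reached below 1. Cenpa had ratios of 0.887 and 0.891 under 2 other groupings. Of them 11 had 50 UMIs or more over both libraries, mostly by their 60TM counts, and all 11 were past a fold of 1.5, where 4.08% of the 11294 genes measured in microglia were that much higher. Since these genes passed the minimum through the library in which they are high, the count adds no support.

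The S phase genes gave a broader and smaller difference. Microglia with at least 3 S phase genes were 332 of 2476 in 60TM (13.4%, interval 12.1 to 14.8%) and 133 of 2109 in WT (6.31%, interval 5.31 to 7.43%), a ratio of 2.13 (1.73 to 2.62). Depth bears on this share, since the median microglial cell had 6877 UMIs in 60TM and 5649 UMIs in WT and the deeper oligodendrocytes reached 35.4% in 60TM and 31.2% in WT. With all cells at 2000 UMIs, the share was 52 of 2452 microglia in 60TM (2.12%) and 15 of 2079 in WT (0.722%), a ratio of 2.94 (1.63 to 5.62), with 24 shallower 60TM cells and 30 shallower WT cells left out. Oligodendrocytes then had 2 of 753 in 60TM and 3 of 1393 in WT, and astrocytes 5 of 1772 (0.282%) in 60TM and 3 of 883 (0.340%) in WT. Of the 52 thinned 60TM microglia, 7 were also mitotic in their unthinned counts and 16 had an unthinned UMI of Mki67 or Top2a, against 1 and 2 of the 15 WT cells.

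Higher steps of the criterion, chosen after seeing the data, widened the difference in microglia. At least 5 S phase genes were found in 115 60TM microglia (4.64%) and 18 WT microglia (0.853%), a ratio of 5.44 (3.29 to 9.51). At least 10 were found in 20 microglia of 60TM (0.808%) and 3 of WT (0.142%), a ratio of 5.68 (1.68 to 29.8). In oligodendrocytes at least 5 were found in 3.58% of 60TM cells and 3.02% of WT cells, and at least 8 in 0 of 754 60TM cells and 1 of 1393 WT cells. In astrocytes at least 3 were found in 7.72% of 60TM cells and 4.64% of WT cells, a ratio of 1.66 (1.18 to 2.38), and at least 5 in 15 of 1955 60TM cells and 2 of 948 WT cells, a ratio of 3.64 (0.846 to 32.8).

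**Figure D2:**
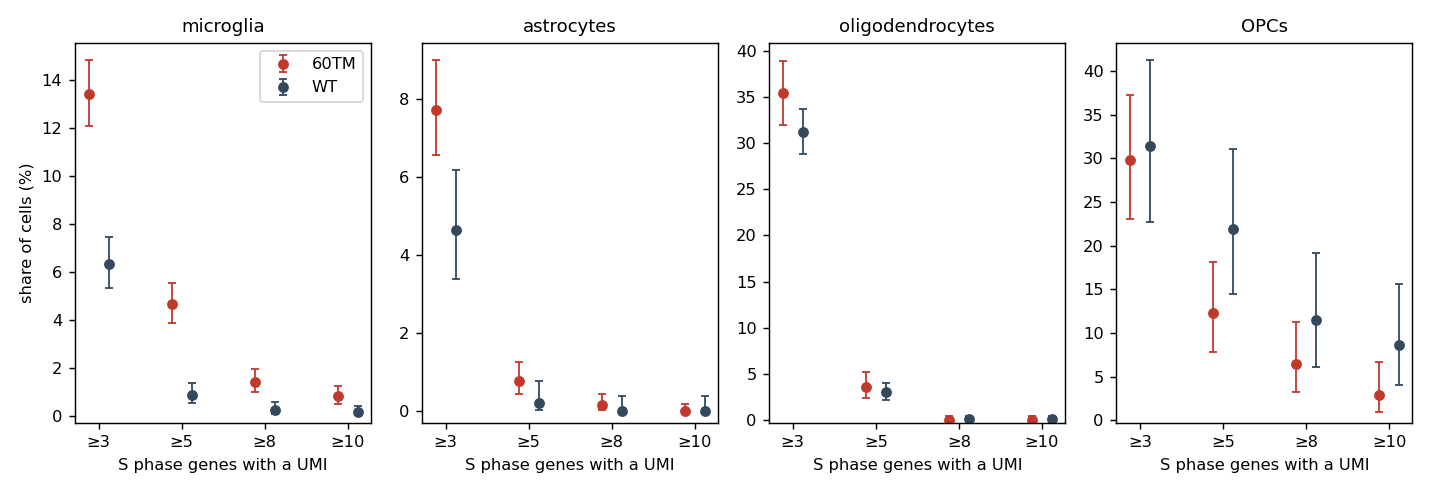
Share of cells (y axis, percent, with exact 95% binomial intervals) with at least 3, 5, 8 or 10 of the 16 S phase genes (x axis) in microglia, astrocytes, oligodendrocytes and OPCs, 60TM left of WT, with a y range of its own in each panel. In microglia the share at 5 genes was 4.64% in 60TM and 0.853% in WT, and in OPCs it was 12.3% in 60TM and 21.9% in WT.

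The summed level of the 16 S phase genes in microglia was 234 CPM in 60TM (4389 UMIs) and 165 CPM in WT (2213 UMIs), a ratio of 1.42 (1.35 to 1.5). Without the cells that had at least 3 genes of either phase the ratio was 0.960. That removal uses the summed genes themselves and caps every remaining cell, so the value does not show that the other cells are alike. Of the 13 S phase genes that reached 50 UMIs, 6 were past the fold of 1.5 and higher in 60TM, where the share over all genes is the 4.08% above, and 0 were that much lower, where 3.33% of all genes were. Their median log2 ratio, with 5 CPM added to both levels, was 0.38, against -0.03 over all genes measured in microglia. Of the 6 helicase subunits, 4 stood highest. Mcm2 had 178 UMIs in 60TM and 45 in WT (ratio 2.83, 2.03 to 4.02), Mcm6 322 and 107 (2.16, 1.73 to 2.71), Mcm4 274 and 97 (2.02, 1.60 to 2.58) and Mcm5 174 and 68 (1.83, 1.38 to 2.46). The dUTPase gene Dut, with 174 UMIs in 60TM and 73 in WT, had a ratio of 1.71, and Gins2, with 147 and 62, had 1.70.

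The other S phase genes lay closer to 1 in microglia. Pcna, read at 57.2 CPM in 60TM and 49.8 CPM in WT, had a ratio of 1.15 (1.04 to 1.27). Tyms and Rrm1 both had 1.27, Mcm3 1.28, Fen1 1.31, Mcm7 1.45 and Cdt1, just under the fold, 1.5. Rrm2, the inducible subunit of ribonucleotide reductase, had 22 UMIs in 60TM and 1 in WT (15.8, 2.55 to 650), Cdc6 had 11 and 1 (7.88, 1.15 to 339) and Ung 30 and 8 (2.69, 1.2 to 6.78), all 3 under 50 UMIs. Hmgb2, a chromatin protein, was read at 155 CPM in 60TM and 110 CPM in WT (1.40), and Stmn1, a microtubule-destabilising protein, at 78.9 and 56.8 CPM (1.39), neither past the fold.

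**Figure D3:**
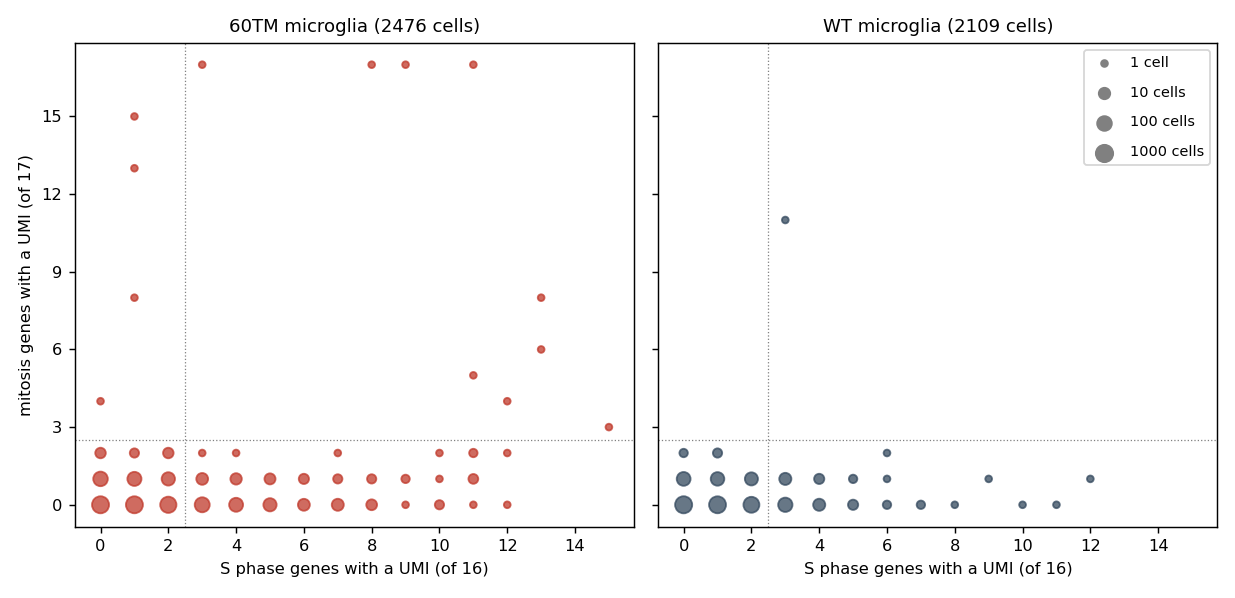
Number of S phase genes (x axis, of 16) against number of mitosis genes (y axis, of 17) with a UMI in each of 2476 60TM microglia (left) and 2109 WT microglia (right), with point size growing with the log of the number of cells and dotted lines at 3 genes. The 13 mitotic 60TM cells spread up to 17 mitosis genes and 15 S phase genes, and the 1 mitotic WT cell has 11 and 3.

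Microglial states also differed between the libraries. The S phase share was higher in 60TM in each of the large microglial clusters: 16.3% in 60TM and 8.32% in WT in the cluster led by Ccl4 and Tnf, 8.41% in 60TM and 4.36% in WT in the cluster of 844 60TM and 1056 WT cells, and 11.7% in 60TM and 7.78% in WT in the cluster led by Rgs1. These shares were not thinned, and median depth was higher in 60TM in each, at 8440 against 7748, 5335 against 4851.5 and 6569 against 6382 UMIs. The summed S phase level had ratios of 1.35, 1.47 and 1.09 in the same order, the last with an interval of 0.970 to 1.22. A cluster led by interferon response genes held 209 60TM cells, 45 of them S phase cells (21.5%), and 7 WT cells, 1 of them an S phase cell. Without it 12 of 2267 60TM microglia and 1 of 2102 WT microglia were mitotic, so 1 of the 13 lay there, and 5 lay with the WT cell in a cluster of 7 cells led by Mki67. The summed level of immediate early genes, which tissue dissociation is known to induce, was 16660 CPM in 60TM microglia and 11977 CPM in WT microglia, and its part in the result was not tested.

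Other genes of the cycle were also higher in 60TM microglia. Of 22 other S phase genes measured, 6 were at least 1.5-fold higher, among them Hells, a chromatin remodeller (176 UMIs in 60TM and 24 in WT, ratio 5.25), and Uhrf1 (48 and 9, ratio 3.82), which maintains DNA methylation. Of 30 other mitosis genes, 16 were higher, among them Hmmr (67 UMIs in 60TM and 2 in WT, ratio 24.0, 6.39 to 202) and Prc1, a spindle midzone protein (141 and 9, ratio 11.2). The share over all genes is again the 4.08% above, and several of these genes reached 50 UMIs through 60TM alone, so the counts add no support. Among 16 cyclins, kinases and E2F regulators, E2f1 (58 and 11 UMIs, ratio 3.78), Ccnd2 (59 and 15, ratio 2.82), Ccnd1 and Myc were higher. Among 14 inhibitors of the cycle Cdkn2a (54 UMIs in 60TM and 8 in WT, ratio 4.84) and Cdkn1a, encoding p21, (868 and 327, ratio 1.90) were higher, and Cdkn1c, encoding p57, was lower (255 and 349, ratio 0.523). Of 14 genes of microglial growth factors and their receptors, the only one past the fold was Igf1 at 40 UMIs in 60TM and 74 in WT (ratio 0.387). Each of 12 interferon response genes was higher in 60TM microglia, among them Ifit2 at 39.6 CPM in 60TM and 2.24 CPM in WT (ratio 17.7).

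Microglia with at least 3 genes of either phase, 336 in 60TM and 133 in WT, were set against the other microglia of the same library, as a description. They were deeper, at a median of 9468.5 against 6585 UMIs in 60TM and 8234 against 5557 UMIs in WT. The 10 homeostatic genes, those of resting microglia, summed to 20952 against 23323 CPM in 60TM (ratio 0.898) and 23043 against 27937 CPM in WT (ratio 0.825). Genes of the interferon response summed to 1397 against 1073 CPM in 60TM and 387 against 277 CPM in WT. With the criterion applied after thinning, the ratio in WT turned to 0.862 for the interferon genes and to 1.06 for the homeostatic genes, while in 60TM the ratios were 1.46 and 0.953. Disease-associated genes, a list that holds Lgals3, were then lower in sum in these 60TM cells and slightly higher in those of WT. They were also lower in sum in the 13 mitotic 60TM microglia alone. The ranking of single genes that follows was made without thinning. Outside the cell cycle lists, the genes with the highest ratios were Lgals3, encoding galectin-3 (19.8 against 3.27 CPM in 60TM, 130 against 10.2 CPM in WT), Lilrb4a, Lpl, Tnf, Nme1, Cybb, Ifitm3, Hsp90aa1, Mif, Nap1l1, Ier3 and Txn1, and among those with the lowest were A830008E24Rik, Clec4a3, Lyl1, 5330438D12Rik and Whrn. In the 13 mitotic 60TM microglia alone the chaperone gene Hsp90aa1 (691 against 259 CPM in the other 60TM microglia) and the thioredoxin gene Txn1 (305 against 77.6 CPM) had ratios of 2.67 and 3.93.

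In OPCs the mitosis genes were lower in the 60TM library. Mitotic cells were 11 of 171 OPCs in 60TM (6.43%, interval 3.25 to 11.2%) and 15 of 105 in WT (14.3%, interval 8.22 to 22.5%), a ratio of 0.450 whose interval, 0.187 to 1.05, includes 1. Thinned to 2000 UMIs they were 6 of 156 in 60TM (3.85%) and 12 of 101 in WT (11.9%), a ratio of 0.324 (0.0997 to 0.932). Depth was close, with medians of 7355 UMIs in 60TM and 7284 UMIs in WT. The S phase share was 29.8% in 60TM and 31.4% in WT, a ratio of 0.949, and after thinning 11 of 156 (7.05%) in 60TM and 16 of 101 (15.8%) in WT, a ratio of 0.445 (0.187 to 1.02).

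The summed level of the mitosis genes in OPCs was 631 CPM in 60TM and 2891 CPM in WT, a ratio of 0.218 (0.201 to 0.237). It rests on the mitotic cells, which held 95.9% of these UMIs in 60TM and 98.9% in WT. These cells were fewer in 60TM and also held less. Per mitotic OPC the level of the 17 genes had a median of 6871 CPM in 60TM (145 to 19872 CPM) and 12935 CPM in WT (309 to 29061 CPM), ranges that overlap widely, and 5 of 11 cells in 60TM and 9 of 15 in WT held at least 10 of the genes.

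Every mitosis gene was lower in 60TM OPCs, with ratios from 0.0992 for Bub1 (5 UMIs in 60TM and 34 in WT) to 0.405 for Tpx2 (78 and 130). Ube2c had 58 UMIs in 60TM (47.2 CPM) and 292 UMIs in WT (352 CPM), a ratio of 0.134 (0.0993 to 0.178). Top2a had 100 UMIs in 60TM (81.4 CPM) and 377 in WT (455 CPM), a ratio of 0.179 (0.142 to 0.224). Mki67 had 80 UMIs in 60TM and 232 in WT, a ratio of 0.233 (0.178 to 0.301). All 3 had higher levels in 60TM than in WT microglia and lower levels in 60TM than in WT OPCs. Ccna2 (16 UMIs in 60TM and 59 in WT), Ccnb1 (30 and 109), Nusap1 (30 and 103) and Cenpf (135 and 397) had ratios of 0.183, 0.186, 0.197 and 0.229. Of the 14 measured mitosis genes all 14 were at least 1.5-fold lower, where 5.06% of the 7199 genes measured in OPCs were, and the counts of WT carried most of them over the minimum. Aurka, Aurkb and Bub1 had fewer than 50 UMIs.

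The S phase genes of OPCs summed to 474 CPM in 60TM and 727 CPM in WT, a ratio of 0.652 (0.581 to 0.732). Of the 10 measured ones, 7 were at least 1.5-fold lower, where 5.06% of the 7199 genes measured in OPCs were. None was that much higher, where 3.99% of all genes were. Their median log2 ratio, again with 5 CPM added, was -0.60, against -0.01 over all genes measured in OPCs. Mcm2 had 19 UMIs in 60TM and 36 in WT (ratio 0.356, 0.193 to 0.638), Rrm2 21 and 36 (0.394, 0.218 to 0.693) and Mcm7 38 and 57 (0.450, 0.290 to 0.690). Mcm6, Rrm1, Mcm5 and Mcm3 had ratios of 0.598, 0.619, 0.631 and 0.634, with intervals that include 1 for Mcm5 and Mcm3. Mcm4 (0.7), Pcna (106 UMIs in 60TM and 94 in WT, 0.761) and Dut (99 and 77, 0.868) were not past the fold. Hmgb2 was read at 233 CPM in 60TM and 614 CPM in WT (0.379) and Stmn1 at 197 and 369 CPM (0.534). Without the OPCs that had at least 3 genes of either phase, the ratio was 0.966 for the S phase sum and 0.939 for the mitosis sum. As in microglia, the removed cells were picked by the summed genes, so these values say little about the remaining cells.

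Beyond the 35, 28 of 33 other mitosis genes were lower in 60TM OPCs, among them Prc1 (67 UMIs in 60TM and 305 in WT, ratio 0.148) and the spindle motor gene Kif11 (20 and 81, ratio 0.167), and 6 of 14 other S phase genes were, beside the 5.06% of all genes above, and WT counts carried many of them over the minimum. The cycle inhibitor Cdkn1c went the other way, at 86 UMIs in 60TM and 19 in WT (ratio 3.05, 1.84 to 5.32), while Cdkn2c (49 and 91, ratio 0.363) and Cdkn2d (52 and 80, ratio 0.439) were lower. Ccnd1, the cyclin of G1 phase, was at 1074 CPM in 60TM and 1270 CPM in WT (ratio 0.846). Committed oligodendrocyte precursors, the next stage, held no mitotic cell among 91 in 60TM and 90 in WT, which allows shares up to 3.30% and 3.33%. Their S phase genes summed to 189 CPM in 60TM and 176 CPM in WT, and none of the 3 measured S phase genes was past the fold, where 4.21% of 7298 genes were higher and 2.96% lower.

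**Figure D4:**
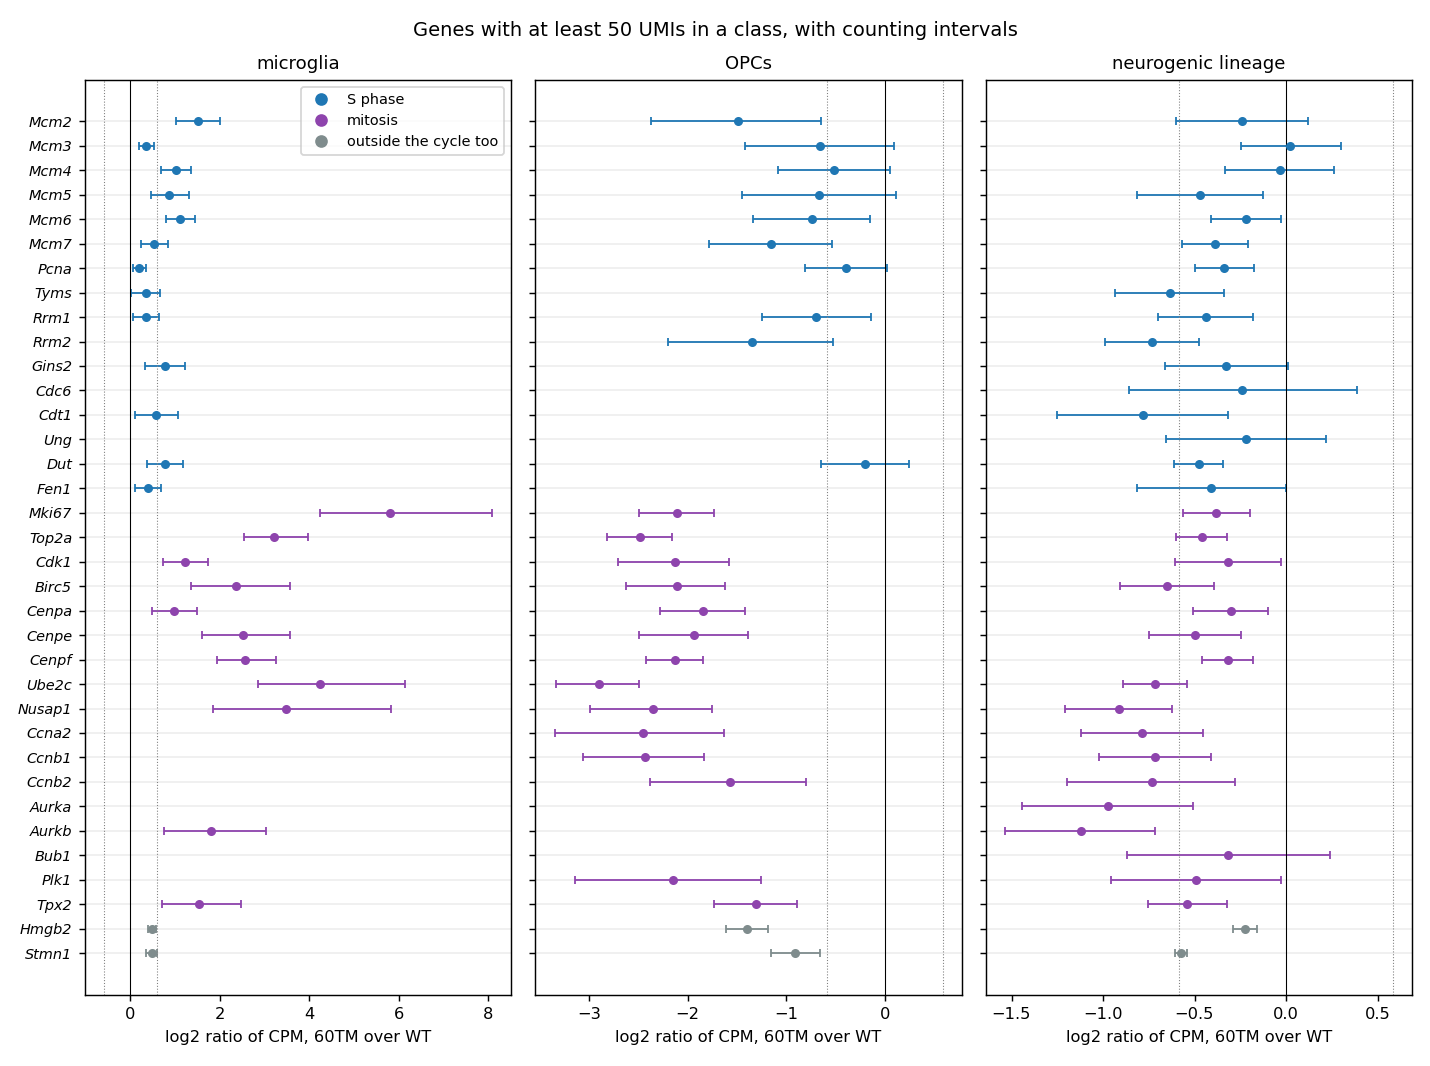
Log2 ratio of 60TM to WT (x axis, with 95% counting intervals) of the cell cycle genes with at least 50 UMIs in microglia, OPCs and the neurogenic lineage (panels with their own x ranges), with dotted lines at a fold of 1.5 in either direction. The mitosis genes lie right of 0 in microglia, up to a ratio of 55.6 for Mki67, and left of 0 in OPCs, down to 0.134 for Ube2c.

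In the neurogenic lineage of the dentate gyrus most dividing cells were intermediate progenitors, the amplifying cells between stem cell and neuron, and there the libraries were close. This class came in part from the split cluster led by cycle genes, so its high shares follow partly from how its cells were gathered. With mixed clusters left whole, the lineage held 4 mitotic cells of 372 in 60TM and 3 of 139 in WT. Oligodendrocyte markers summed to 199 CPM in 60TM and 1670 CPM in WT intermediate progenitors, and the part of this RNA was not tested. Mitotic cells were 57 of 81 intermediate progenitors in 60TM (70.4%) and 38 of 56 in WT (67.9%), a ratio of 1.04 (0.676 to 1.61). S phase cells were 96.3% of them in 60TM and 94.6% in WT, and 50 of 78 (64.1%) in 60TM and 37 of 56 (66.1%) in WT after thinning. The mitosis genes summed to 4744 CPM in 60TM and 5294 CPM in WT (ratio 0.896, 0.861 to 0.933) and the S phase genes to 2748 and 3184 CPM (0.863, 0.819 to 0.909). Mki67 was read at 476 CPM in 60TM and 491 CPM in WT, Top2a at 802 and 891 CPM, and Pcna at 371 and 446 CPM. None of the 16 S phase genes was past the fold, where 5.53% of 5910 genes were higher and 4.74% lower. Of the 17 mitosis genes 3 were lower: Aurkb (81 UMIs in 60TM and 126 in WT, ratio 0.566), Aurka (61 and 91, 0.590) and Nusap1 (150 and 217, 0.608).

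On either side of the intermediate progenitors the counts were small. Radial glia-like stem cells had 4 mitotic cells of 372 in 60TM (1.08%) and 3 of 139 in WT (2.16%), and mitosis genes summed to 26.9 CPM in 60TM and 36.7 CPM in WT (ratio 0.732, 0.499 to 1.09). Of their 8 measured S phase genes, Mcm3 was past the fold and higher in 60TM (ratio 1.71, 0.933 to 3.39) and Gins2 lower (0.604, 0.356 to 1.04). Both intervals include 1, and 5.23% of 8520 genes were that much higher and 6.98% lower. Cells between progenitors and immature neurons had 4 of 64 mitotic in 60TM (6.25%) and 10 of 76 in WT (13.2%), a ratio of 0.475 (0.109 to 1.65). The 3 mitosis genes measured there, Cenpa (ratio 0.243), Cenpf (0.306) and Ube2c (0.465), were lower, where 3.94% of 4873 genes were lower and 5.05% higher, and they reached 50 UMIs mostly through WT, so the count adds no support. Immature neurons had 1 of 150 mitotic in 60TM and 3 of 188 in WT, and none of their 6 measured S phase genes was past the fold, where 2.82% of 6708 genes were higher and 4.35% lower.

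Over the whole lineage, 66 of 667 cells in 60TM (9.90%, interval 7.74 to 12.4%) and 54 of 459 cells in WT (11.8%, interval 8.96 to 15.1%) were mitotic, a ratio of 0.841 (0.578 to 1.23), and 39.4% in 60TM and 44.2% in WT were S phase cells. The summed mitosis level was 862 CPM in 60TM and 1233 CPM in WT (ratio 0.699) and the S phase level 764 and 992 CPM (0.770). These sums also carry the makeup of the lineage, in which stem cells were 372 of 667 cells in 60TM and 139 of 459 in WT, and within intermediate progenitors both ratios were nearer 1. With mixed clusters left whole the S phase ratio was 1.04 and the mitosis ratio 0.732. Of the 17 mitosis genes 8 were at least 1.5-fold lower, with Aurkb furthest (84 UMIs in 60TM and 130 in WT, ratio 0.460, 0.345 to 0.610), and of the 16 S phase genes 3 were, Cdt1 (0.582), Rrm2 (0.601) and Tyms (0.644). The number of mitosis genes past the fold was 0 with no doublets removed and with mixed clusters left whole, 1 with cell cycle genes kept for clustering and 4 at resolution 2. The background in this lineage was 8.57% of 11143 genes lower and 8.17% higher.

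Of the genes beyond the 35, 18 of 43 other mitosis genes were lower in the 60TM lineage, among them Psrc1 (54 UMIs in 60TM and 85 in WT, ratio 0.452) and Cdc20, the activator of the anaphase-promoting complex (141 and 196, ratio 0.512). Of 30 other S phase genes 8 were lower, among them Tk1 (44 and 74, ratio 0.423). Over all genes of the lineage 8.57% of 11143 were that much lower. The makeup of the lineage enters these counts as it enters the sums above. Ccnd1 was higher (384 and 160 UMIs, ratio 1.71). The mitotic lineage cells of WT held oligodendrocyte markers at 1700 CPM, against 371 CPM in the other WT lineage cells, and those of 60TM at 201 CPM, against 305 CPM. The part of this RNA in the result was not tested.

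**Figure D5:**
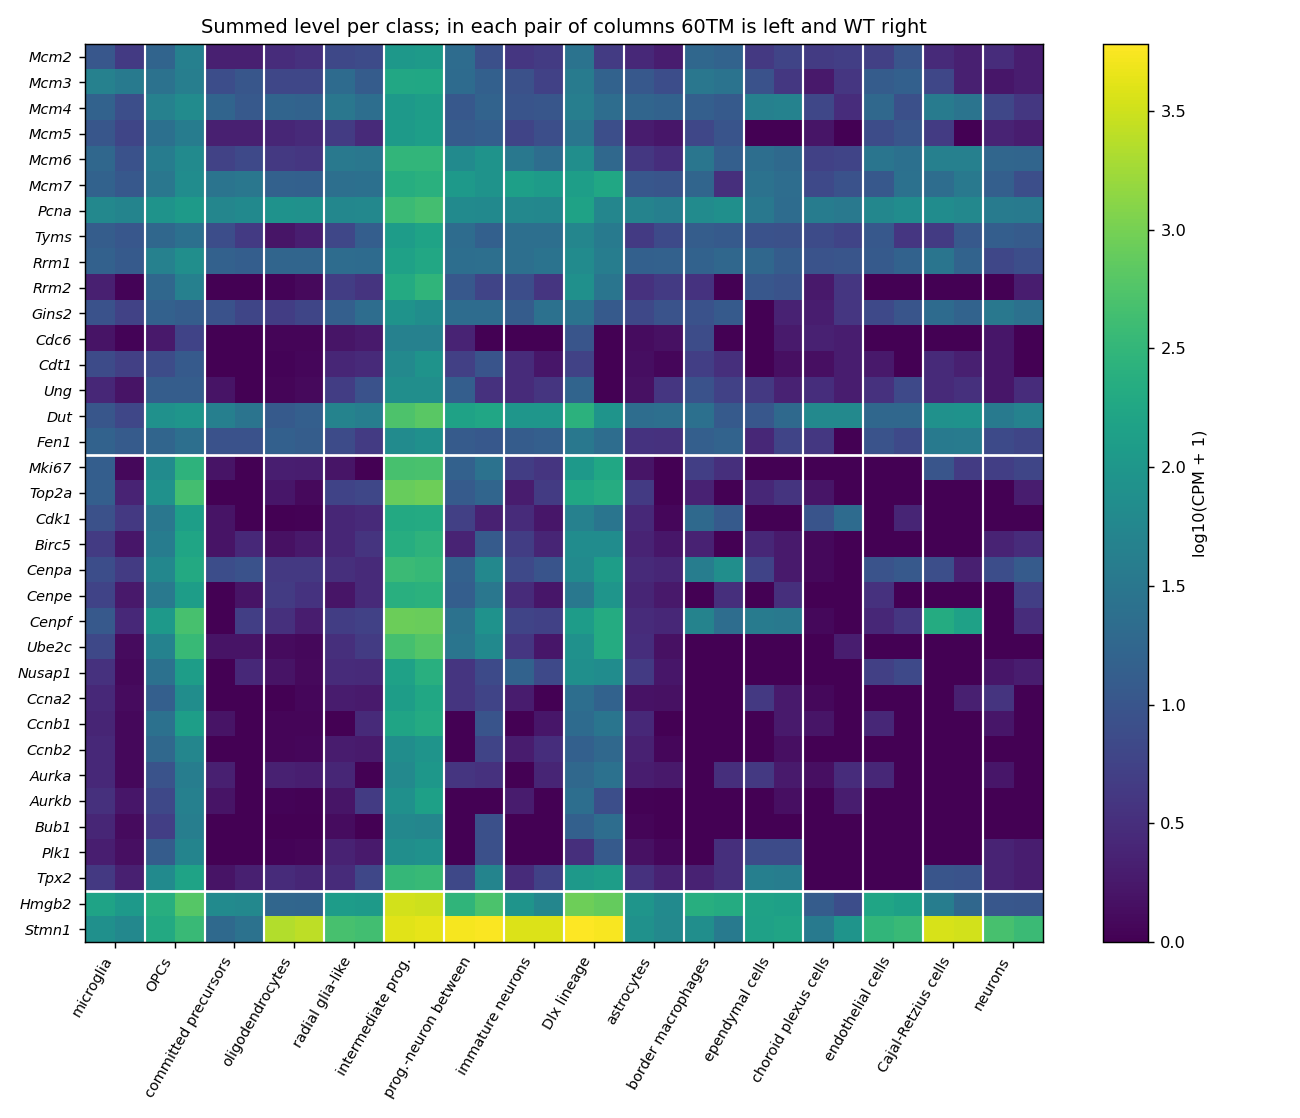
Level of each of the 35 genes (y axis) in 16 cell classes (x axis) as a colour on the scale of log10(CPM + 1), with 60TM left of WT in each pair of columns. All 16 S phase and 17 mitosis genes are highest in intermediate progenitors in both libraries, and Mki67 is read there at 476 CPM in 60TM and 491 CPM in WT. That class came in part from a cluster led by cycle genes.

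Each of the 16 S phase genes and 17 mitosis genes was highest in intermediate progenitors in both libraries. This class came in part from a cluster led by cycle genes, so its first place was partly set by its construction. The same class enters the correlations that follow. As a description over 16 classes that share a library, the correlation of each mitosis gene's log2 level (CPM plus 5) with that of the summed other mitosis genes ran from 0.76 to 0.93 in 60TM (median 0.84) and from 0.76 to 0.94 in WT (median 0.91). For the S phase genes the correlation with the mitosis genes was 0.67 to 0.92 in 60TM (median 0.81) and 0.52 to 0.86 in WT (median 0.75). The share of a gene's UMIs found in mitotic cells varied between genes. For mitosis genes it is raised by construction, since these genes define the mitotic cells. Over all classes it was 95.1% in 60TM and 95.2% in WT for Mki67 and 95.6% and 97.3% for Ube2c. It was 10.9% in 60TM and 11.5% in WT for Pcna and 13.8% and 16.2% for Mcm3. Rrm2 was the S phase gene with the highest such share, at 71.6% in 60TM and 81.1% in WT. Stmn1 had 9.84% in 60TM and 6.38% in WT, and its level was highest outside the intermediate progenitors, in the Dlx-marked cells at 6044 CPM in 60TM and in the cells between progenitors and immature neurons at 5704 CPM in WT. The interneuron-lineage cells marked by Dlx genes had 6 mitotic cells of 57 in 60TM (10.5%) and 2 of 43 in WT (4.65%). Their S phase genes were at 1032 CPM in 60TM and 520 CPM in WT (ratio 1.99, 1.65 to 2.41). Exactly 3 S phase genes were held by 2 of these cells in 60TM and 9 in WT, and 5 or more by 7 and 3. Their mitosis genes went both ways, with Mki67 at 107 CPM in 60TM and 178 CPM in WT, Ube2c at 80.6 and 210 CPM, and Cdk1 at 44.8 and 28.5 CPM. Astrocytes, the class in which GFAP is known to be expressed, had 1 mitotic cell of 1955 in 60TM and 0 of 948 in WT, which allows up to 0.316%, and their S phase genes summed to 140 CPM in 60TM and 137 CPM in WT. Their mitosis genes summed to 25.5 CPM in 60TM and 9.04 CPM in WT (ratio 2.82, 2.12 to 3.83), with 56.5% of the 60TM UMIs in that 1 cell. In astrocytes Top2a had 53 UMIs in 60TM, 90.6% of them in the same cell, and 0 in WT. Nusap1 had 51 UMIs in 60TM and 4 in WT astrocytes (ratio 4.97, 1.83 to 18.9), and Ccnd1, outside the 35, had 766 and 16 (18.7, 11.4 to 32.8).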

How the data were processed

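Hippocampal cells of 2 libraries, 60TM and WT, 1 per genotype and each from 3 pooled mice, were measured as raw UMI counts. The authors deposited these counts per gene and cell barcode with the gene and barcode tables, made with Cell Ranger 5.0.0 per the file headers and on GRCm38 per the submitters' processing notes. The annotation release and the treatment of intronic reads are not given in the sources used here. No file ties barcodes to mice.

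Barcodes were kept from 500 detected genes upward and up to a mitochondrial share of 15%. Doublets were scored with Scrublet in scanpy 1.11.5 and removed at 0.8% per 1000 barcodes, 610 barcodes (6.99%) in 60TM and 377 (5.49%) in WT, since the automatic threshold marked 3.40% and 3.34%. Cells were clustered (Leiden, resolution 1, 30 principal components, 15 neighbours, igraph 0.11.9) on 2000 variable genes without cell cycle genes. Clusters were named where at least 3 markers stood out. A step that split mixed clusters (resolution 0.5), its naming rule and the steps of 5, 8 and 10 S phase genes were chosen after seeing the data. The members and gene lists were chosen with earlier results of these data known.

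Levels are UMIs of a class over its total UMIs (CPM). Ratios have exact conditional binomial intervals and shares exact Clopper-Pearson intervals (SciPy 1.17.1). A gene is measured in a class with 50 or more UMIs over both libraries and past the fold at 1.5. A count of 0 was given a limit of 3 counts. The 3′ kit reads transcript ends, so levels are not scaled by length. Per class the text names up to 6 members with the highest and 6 with the lowest ratio by the interval bound nearest 1, and up to 2 of either kind from each other list. In microglia past the criterion against the others, the rule takes the 12 highest and 6 lowest genes with at least 20 UMIs in each library. Some genes that these rules pick are not reported here. Code was tested on simulated data. Alternatives were other cell filters, doublet handling, clusterings, class rules, criteria, thinning, UMI minimums, folds and scales. Other versions were Python 3.11.15, NumPy 2.4.6, pandas 2.3.3, scikit-learn 1.9.0 and matplotlib 3.10.9.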

Additional observations from a re-analysis of the deposited data

Results flagged for a closer look

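Microglia and OPCs differed in opposite directions. The summed level of the S phase genes had a ratio of 60TM to WT of 1.42 in microglia and 0.652 in OPCs. The summed level of the mitosis genes had a ratio of 5.21 in microglia and 0.218 in OPCs. With 1 library per genotype the difference between the classes was not tested. In microglia 1 cell held 29.8% of the mitosis UMIs of the 13 mitotic 60TM cells, and in OPCs the cell with the most held 25.9% in 60TM and 20.6% in WT.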

How the results depend on the processing

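No paired analysis was possible because each genotype has 1 library. All values are 60TM over WT. The mitotic share was higher in 60TM microglia and lower in 60TM OPCs under every alternative that gave a value, 8 in microglia, where 5 left no mitotic WT cell and so no ratio, and 13 in OPCs. In the lineage its ratio ran from 0.498 to 1.1 over 13 alternatives. Depth limits the S phase criterion, and the few mitotic cells limit the sums. The cause of the moves below was not tested, except that fewer genes or cells enter by construction under stricter minimums, criteria and thinning.

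With a minimum of 100 UMIs, 2 S phase genes were lower in OPCs and 6 mitosis genes higher in microglia, and with no minimum 17 mitosis genes were higher in microglia. At a fold of 2, 3 S phase genes were higher in microglia, 3 lower in OPCs and 0 lower in the lineage, with 1 mitosis gene lower there. The S phase share ratio in microglia was 1.42 at 2 genes and 4.04 at 4 genes, 2.94 when thinned to 2000 UMIs and 2.95 at 4000. In OPCs it was 0.569 at 4 genes and 0.445 when thinned. Thinned sums had S phase ratios of 1.27 in microglia, 0.75 in OPCs and 0.951 in the lineage, and mitosis ratios of 2.92, 0.287 and 0.819. Means over cells gave S phase 1.33 in microglia and 0.938 in the lineage, and mitosis 2.73, 0.344 in OPCs and 0.831. Without cells past the criterion, which are picked by the summed genes themselves, the S phase ratios were 0.960, 0.966 and 0.887. The mitosis ratios were then 1.32, 0.939 and 0.858. Without the cell with the most UMIs the OPC mitosis ratio was 0.201.

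With looser gene and stricter mitochondrial filters 1 S phase gene was lower in the lineage and the S phase ratio was 0.849. With no doublets removed, Cenpa in microglia turned to 0.887 and Ccnb2 in the lineage to 1.03, 3 mitosis genes were higher in microglia, and 1 S phase and 0 mitosis genes lower in the lineage. The sums were then 1.53 for mitosis in microglia, 0.250 in OPCs and 0.924 in the lineage, and 0.871 for S phase in the lineage, and microglia made up 4.32% of mitotic 60TM cells and 0 of those of WT. With cell cycle genes kept for clustering, Cenpa was 0.891, 3 mitosis genes were higher in microglia and 1 lower in the lineage, with sums of 1.57 for mitosis in microglia, 0.844 in the lineage and 0.804 for S phase. Microglia then made up 5.56% of mitotic 60TM cells and 0 of WT ones, and the lineage 71.3% in 60TM. Classes by marker score gave 7 mitosis genes higher in microglia, 1 S phase gene lower in the lineage and mitosis sums of 4.16, 0.261 in OPCs and 0.779 in the lineage. At resolution 2, 6 mitosis genes were higher in microglia, 4 mitosis and 1 S phase genes lower in the lineage, the sums were 2.96, 0.824 and, for S phase, 0.833, and 0 mitotic WT cells were microglia.

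With mixed clusters not split, which was added after seeing the data, Ccna2, Ccnb2 and Nusap1 were each 1.06 and Rrm2 1.41 in the lineage, where 1 S phase gene was higher, 1 lower and 0 mitosis genes lower. The lineage share ratios were 1.1 for S phase and 0.498 for mitosis, its sums 1.04 and 0.732, and it made up 3.70% of mitotic 60TM cells and 3.49% of WT ones. In microglia 6 mitosis genes were higher, the mitosis sum was 2.97, and 0 mitotic WT cells were microglia. For microglia past the criterion against the others, also added, the criterion after thinning gave ratios of 0.953 in 60TM and 1.06 in WT for homeostatic genes, 0.751 and 1.06 for disease-associated genes and 1.46 and 0.862 for interferon genes. For the mitotic 60TM cells alone they were 0.834, 0.680 and 1.65. Of the values of single genes 594 stayed, 92 moved and 7 reversed.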

Other observations

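Some members were read in classes other than those named above as known to divide. Cenpf, a kinetochore gene, was at 208 CPM in 60TM and 144 CPM in WT Cajal-Retzius cells, early-born neurons that do not divide, where the 17 mitosis genes summed to 234 CPM in 60TM and 158 CPM in WT. In these cells 1 of 69 in 60TM and 0 of 99 in WT was mitotic by the criterion, 0 of 99 allowing up to 3.03%. Ependymal cells met the criterion in 4 of 42 cells in 60TM and 8 of 128 in WT at medians of 68385 and 58103 UMIs in those cells, and after thinning to 2000 UMIs in 0 of 33 and 0 of 108. Among the barcodes that passed the gene and mitochondrial filters and were removed as doublets, 31 of 550 in 60TM and 12 of 349 in WT held at least 3 mitosis genes.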
